A study of Mus musculus with 9 samples.

Results

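The genes described here are 36 genes of mitosis and of the mitotic spindle, taken by symbol from the 41388 genes of the deposited table, and all 36 were found and passed the minimum for testing. They were measured by RNA-Seq in Tc17 cells, CD8+ T cells that make IL-17, which were grown from naive CD62L+CD44-CD8+ T cells of C57BL/6 wild-type mice (lymph node and spleen) with anti-CD3/CD28, IL-2, TGF-β, IL-6 and anti-IFN-γ. All cultures shared this priming for 2 days and differed in what was added: the solvent DMSO at 0.2% (Ctrl), 20 µM dimethyl fumarate (DMF), or 20 µM DMF with 50 µM reduced glutathione (DMF + GSH). Each group had 3 libraries, numbered replicate 1 to 3, with replicate 1 in preparation batch 1 and replicates 2 and 3 in batch 2. It is not clear from the labels whether the DMF cultures also held DMSO. The mice were 8 to 12 weeks old and matched for age and sex. The labels do not say whether a number stands for separate animals, so the p-values measure only the spread between these libraries. DMF is a fumaric acid ester that depletes glutathione, and the third group asks which of its effects are absent when glutathione is supplied.

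Cells enter mitosis when cyclin B and cyclin A activate the kinase CDK1, which leads to chromosome condensation and assembly of the spindle. Kinetochores then attach the chromosomes to microtubules, the spindle assembly checkpoint holds cells until all are attached, and the anaphase-promoting complex with CDC20 releases the sister chromatids before cytokinesis separates the daughter cells. Transcripts of most of these proteins are periodic: they accumulate in G2 and M phase and are low in G1, and activated CD8+ T cells, which divide rapidly, carry them at high levels. In bulk RNA, fewer cells in G2 or M phase and less RNA per cell cannot be told apart.

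The libraries held from 7671772 to 14511926 reads. The 8 CD8 T cell markers summed to 28336 to 34659 normalized counts in Ctrl, 27846 to 33643 with DMF and 28774 to 36988 with DMF + GSH, and Cd4 stayed at or below 4.40. Cd8a makes up much of this sum and had a value above 0 with DMF (log2 fold change 0.31, adjusted p = 0.0378, limma), whereas 6 of the 8 markers were below 0, among them Cd3g (−0.53, 0.0569) and Cd3d (−0.34, 0.151). The median of the 8 was −0.24 for DMF against Ctrl (−0.34 to −0.16 with 1 library left out) and 0.30 for DMF + GSH against DMF. None of them passed at 0.01 in either comparison by limma or edgeR (3 and 3 had an unadjusted p under 0.05 for DMF against Ctrl, against 41.5% and 41.4% of all genes, and 7 and 6 for DMF + GSH against DMF, against 37.9% and 38.2% of all genes), and with the replicate block 6 were lower and 1 higher for DMF against Ctrl (15.6% and 17.6% of all genes), and 1 was lower and 6 were higher for DMF + GSH against DMF (15.6% and 13.7% of all genes). The type 17 markers summed to 4209 to 6007 in Ctrl, 1221 to 2714 with DMF and 3941 to 6469 with DMF + GSH. Of the other lists, the B cell list consisted almost wholly of Ighm (3715 to 4795). S100a8, S100a9, Klra8, Hbb-bs, Hba-a1 and Hba-a2 were at 0 in all libraries. The erythroid list summed to at most 4.64 and the NK list to 8.36 to 12.8 in Ctrl, 20.5 to 33.9 with DMF and 8.80 to 17.5 with DMF + GSH. The CD4 T list, chiefly Foxp3, was at 638 to 964 in Ctrl, 1125 to 2529 with DMF and 547 to 999 with DMF + GSH, and the stromal list, chiefly Pecam1, at 296 to 764, 152 to 253 and 287 to 618. Myeloid transcripts were at 81.1 to 317 in Ctrl, with the highest sum in Ctrl replicate 3, at 61.4 to 73.6 with DMF and at 91.4 to 95.8 with DMF + GSH. The part of these lists in the results on mitosis was not tested.

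With DMF the mitosis and spindle genes were lower almost throughout. The 36 genes together took 1.08%, 1.09% and 1.05% of the reads in the Ctrl libraries. The shares were 0.851%, 0.857% and 0.822% in the DMF libraries and 1.12%, 1.07% and 1.01% in those that also received GSH, which places every DMF library below all others. Of the 36 genes, 35 had a log2 fold change below 0 for DMF against Ctrl, and the exception was Cdk1. The median was −0.25, a decrease of 16.1%, and the range ran from −0.62 (Nusap1) to 0.085 (Cdk1), whereas the median of the 11599 genes tested was 0.0052 and 49.4% of them were below 0. At an adjusted p under 0.01 (limma with the preparation batch as a covariate), 8 genes fell, Ccnb2, Bub1b, Cenpe, Cenpf, Ndc80, Nusap1, Top2a and Mki67, and 0 rose, against 3.6% of all genes tested called lower and 3.6% called higher. At an adjusted p under 0.1, 25 of the 36 were lower, against 18.3% of all genes. None of the 36 was both past 0.01 and lowered by 0.75 or more on the log2 scale, as 1.67% of all genes were. The decrease was seen in each replicate number: 35, 31 and 33 genes were lower with DMF than in the Ctrl library of replicates 1, 2 and 3, with medians of −0.30, −0.19 and −0.25, and the median within batch 2 alone was −0.21. In 31 of the 36 genes all 3 pairs went down (32% of all genes), and in 27 the highest DMF library lay below the lowest Ctrl library (19.8% of all genes).

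By role, the median log2 fold change was lowest for the chromosome proteins (−0.46, 2 genes), spindle proteins (−0.32, 4 genes) and kinetochore (−0.31, 7 genes), followed by the checkpoint (−0.26), cytokinesis (−0.23), mitotic entry (−0.21) and the passenger complex (−0.19), and was nearest to 0 for the other kinases (−0.11) and anaphase onset (−0.10). At an adjusted p under 0.1 (limma), 6 of 7 kinetochore genes, 4 of 4 spindle genes, 4 of 5 cytokinesis genes, 3 of 5 genes of mitotic entry, 2 of 3 checkpoint genes, 2 of 4 passenger genes, both chromosome genes, 1 of 3 other kinases and 1 of 3 anaphase genes were lower. Of all genes 18.3% were lower at this limit. With the replicate block, 4 of 5 genes of mitotic entry and 3 of 3 checkpoint genes were lower at 0.1. The counts of the other roles were unchanged, against 24.8% of all genes.

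The number of genes past the threshold depended on how the replicate numbers entered the model. Deviations from the group means were shared by libraries of equal number, and with the number as a block 22 of the 36 genes were lower at an adjusted p under 0.01 (limma), against 15.6% of all genes. These 22 included the 8 named above. edgeR on the recovered reads called 8 genes, the same 8 (3.43% of all genes lower). Without Ctrl replicate 1, Ctrl replicate 2, DMF replicate 1, DMF replicate 3 or DMF + GSH replicate 1, the count without the block was 0, and without 1 of the other libraries it was 6 to 10. Calls over all genes in either direction were 0.0172% to 0.604% in the former fits and 5.87% to 13% in the latter. With the block the count of the 36 genes stayed between 15 and 24 whichever library was left out. Calls over all genes were then 23.5% to 34.9%.

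**Figure D1:**
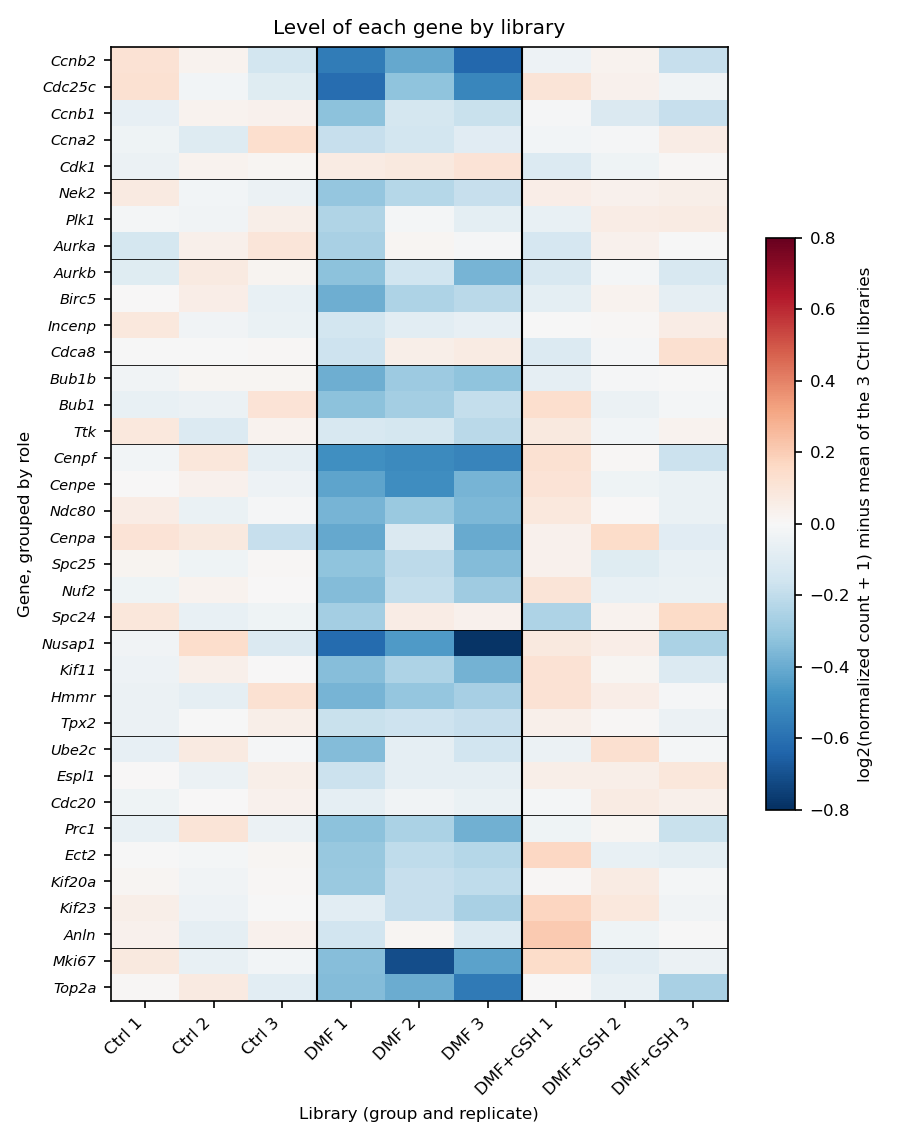
Level of each of the 36 genes (rows, grouped by role) in each of the 9 libraries (columns), as log2(normalized count + 1) minus the mean of the 3 Ctrl libraries of that gene; blue is lower and red is higher. In the DMF libraries 35, 31 and 33 of the 36 genes lie below 0, with medians of −0.33, −0.19 and −0.22, whereas the medians of the DMF + GSH libraries lie at 0.036, 0.0087 and −0.026.

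Among the genes of mitotic entry, the B-type cyclin Ccnb2 changed most. Ccnb2 (chr9:70407692-70421547, minus strand, GRCm38) was at 2237, 2099 and 1864 in Ctrl, 1401, 1550.3 and 1331 under DMF and 2007, 2101 and 1817 with DMF + GSH normalized counts. All DMF libraries were below all others, and the means were 2067 ± 188 (SD, n = 3) and 1427 ± 112 (log2 fold change −0.53 ± 0.090 (SE), adjusted p = 0.00649 (limma)). Cdc25c, the phosphatase that activates CDK1, was at 395, 358 and 339.9 in Ctrl, 238, 290.2 and 253 under DMF and 391, 373 and 357 with DMF + GSH. Its groups did not overlap either, but its log2 fold change of −0.49 ± 0.10 did not pass without the block (adjusted p = 0.0112, limma) and passed with it (adjusted p = 0.000355). Ccnb1, the other mitotic B-type cyclin, had a log2 fold change of −0.21 (adjusted p = 0.0682, limma), and Ccna2, the cyclin that acts in S and G2 phase, one of −0.14 (adjusted p = 0.172, limma). Cdk1 itself, the kinase that these cyclins activate, was at 1595, 1682 and 1669 in Ctrl, 1729, 1740.3 and 1777 under DMF and 1525, 1610.3 and 1657 with DMF + GSH. The 3 DMF libraries were here slightly above all others, with a log2 fold change of 0.085 ± 0.057 that did not pass the test (adjusted p = 0.289, limma, 95% interval −0.043 to 0.21).

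None of the 3 centrosome and spindle kinases passed at 0.01 without the block, against 3.6% of all genes called lower. Nek2, a kinase that splits the centrosome pair before mitosis, was at 1475, 1379 and 1357 in Ctrl, 1131, 1198 and 1233 under DMF and 1452, 1437 and 1446 with DMF + GSH. Each DMF library lay below each Ctrl library, by 15.4% on average (log2 fold change −0.24 ± 0.066 (SE), adjusted p = 0.0241 (limma)), and the gene passed with the replicate block (adjusted p = 0.00302). Plk1, which acts in centrosome maturation and cytokinesis, had a log2 fold change of −0.11 and Aurka, which builds the spindle poles, one of −0.084, with adjusted p = 0.202 and 0.324 (limma). In both genes DMF and Ctrl libraries overlapped.

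The 4 subunits of the chromosomal passenger complex, which corrects wrong attachments and later steers cytokinesis, had unequal values. Its kinase Aurkb was at 1917, 2149.6 and 2083 in Ctrl, 1632, 1835 and 1581 under DMF and 1875, 2025 and 1874 with DMF + GSH, with the DMF libraries below the others (log2 fold change −0.29 ± 0.073 (SE), adjusted p = 0.0187 (limma)). Birc5 (survivin), which brings the complex to the centromere, had a log2 fold change of −0.28 (adjusted p = 0.0147, limma). Both passed only with the replicate block, with adjusted p = 0.000356 and 0.000555. The scaffold Incenp had a log2 fold change of −0.10 and Cdca8 (borealin) one of −0.017, with adjusted p = 0.271 and 0.866 (limma), and Cdca8 was lower than in Ctrl in 1 of the 3 replicate numbers only. Whether the subunits differ from each other was not tested.

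Of the spindle assembly checkpoint kinases, Bub1b (BUBR1, which holds back CDC20 until chromosomes are attached) fell. It was at 3073, 3168 and 3175 in Ctrl, 2389, 2565 and 2512 under DMF and 2983, 3121 and 3133 with DMF + GSH, a narrow spread within each group with the DMF group 20.7% lower (log2 fold change −0.34 ± 0.055 (SE), adjusted p = 0.00604 (limma)). Bub1, which recruits checkpoint proteins to the kinetochore, had a log2 fold change of −0.26 (adjusted p = 0.0336, limma; 0.00223 with the replicate block), and Ttk (MPS1), which starts checkpoint signalling, one of −0.16 (adjusted p = 0.117, limma).

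The kinetochore, the largest role, had 3 of 7 genes past the threshold, against 3.6% of all genes called lower. The chromosome role had 2 of 2. Cenpf, a large protein of the outer kinetochore and nuclear envelope encoded at chr1:189640606-189688086, was at 3073, 3317 and 2963 in Ctrl, 2216, 2186 and 2155 under DMF and 3392, 3131 and 2770.2 with DMF + GSH. The DMF mean was 2186 ± 30.5 (SD, n = 3), 29.8% below Ctrl, with no overlap (log2 fold change −0.51 ± 0.079 (SE), adjusted p = 0.00543 (limma)). Cenpe, the kinetochore motor that moves chromosomes to the spindle equator, was at 3761, 3846 and 3647 in Ctrl, 2803, 2652 and 2894 under DMF and 4041, 3669.8 and 3614 with DMF + GSH, again with DMF below all other libraries (log2 fold change −0.43 ± 0.065 (SE), adjusted p = 0.00528 (limma)). Ndc80, the microtubule-binding subunit that names its complex of 4 proteins, was at 1419.7, 1316 and 1358 in Ctrl, 1053, 1109 and 1064 under DMF and 1448, 1368 and 1318 with DMF + GSH (log2 fold change −0.34 ± 0.065 (SE), adjusted p = 0.00749 (limma)). Within that complex, Nuf2 had a log2 fold change of −0.27 and Spc25 one of −0.29, both past the threshold with the block alone (adjusted p = 0.00227 and 0.00255, limma), whereas Spc24 was at 757, 683 and 694 in Ctrl, 588, 739.6 and 729 under DMF and 599.6, 724 and 789.5 with DMF + GSH and its groups overlapped (log2 fold change −0.059 ± 0.10, adjusted p = 0.699, limma). Cenpa, the histone H3 variant that marks the centromere, had a log2 fold change of −0.31 (adjusted p = 0.0591, limma; 0.000433 with the replicate block).

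Nusap1, which bundles microtubules near chromosomes, had the largest decrease of the 36 genes. It was at 2618, 2947 and 2463 in Ctrl, 1744, 1946 and 1547 under DMF and 2813, 2763 and 2243 with DMF + GSH, a mean of 2676 ± 247 (SD, n = 3) in Ctrl and 1745 ± 199.6 with DMF (log2 fold change −0.62 ± 0.11 (SE), adjusted p = 0.00722 (limma)). The gene (chr2:119618298-119651244) shares 172 exon bases with Oip5 on the other strand. The other spindle proteins were lower by less: Kif11 (Eg5), the motor that pushes the spindle poles apart, had a log2 fold change of −0.32 and Hmmr, which binds spindle microtubules, one of −0.32 (adjusted p = 0.0136 and 0.0141, limma), and both passed with the block. Tpx2, which activates Aurora A on the spindle, had a log2 fold change of −0.17 (adjusted p = 0.0524, limma; 0.0102 with the block).

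None of the 3 genes of anaphase onset passed at 0.01 without the block, against 3.6% of all genes called lower. Ube2c, the ubiquitin-conjugating enzyme of the anaphase-promoting complex, was at 2312, 2539.7 and 2403 in Ctrl, 1897, 2301 and 2171 under DMF and 2336, 2645 and 2387 with DMF + GSH, with a log2 fold change of −0.19 ± 0.069 (adjusted p = 0.0619, limma; 0.00721 with the block). Cdc20, the activator of that complex, was at 2174, 2233 and 2282 in Ctrl, 2125, 2182 and 2147 under DMF and 2205, 2337 and 2289 with DMF + GSH. The DMF values of Cdc20 overlapped with those of Ctrl (log2 fold change −0.051, adjusted p = 0.511, limma, 95% interval −0.18 to 0.073). Espl1 (separase), which cleaves cohesin, had a log2 fold change of −0.10 (adjusted p = 0.219, limma).

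Of the 5 cytokinesis genes, none passed the threshold without the block and 3 passed with it, against 3.6% and 15.6% of all genes called lower. Prc1, which cross-links the microtubules of the central spindle, was at 2020.4, 2267 and 2039 in Ctrl, 1675, 1765 and 1610.5 under DMF and 2056, 2133 and 1861 with DMF + GSH. The DMF libraries were 20.1% lower on average and did not overlap with Ctrl (log2 fold change −0.32 ± 0.078 (SE), adjusted p = 0.0162 (limma); adjusted p = 8.64e-05 with the block). The guanine nucleotide exchange factor Ect2 and the kinesin Kif20a had log2 fold changes of −0.24 and −0.23 and passed with the block (adjusted p = 0.00595 and 0.00253, limma). For the central-spindle kinesin Kif23 and the contractile-ring protein Anln the values were −0.18 and −0.081 (adjusted p = 0.059 and 0.51, limma).

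The highest transcripts of the set were those of 2 proteins of mitotic chromosomes, and both fell. Top2a, the topoisomerase that untangles sister chromatids, was at 23341, 24405 and 21844 in Ctrl, 18238, 17575 and 15640.2 under DMF and 23193, 22262 and 19378 with DMF + GSH. Its DMF libraries were 26.1% lower (log2 fold change −0.44 ± 0.088 (SE), adjusted p = 0.00933 (limma)). Mki67, which coats mitotic chromosomes and is the standard marker of cycling cells, was at 23528, 21437 and 21963 in Ctrl, 17587, 13617 and 16602 under DMF and 24666, 20998 and 21535 with DMF + GSH. DMF replicate 2 was the lowest library, and all DMF libraries were below all Ctrl libraries (log2 fold change −0.49 ± 0.085 (SE), adjusted p = 0.0065 (limma)).

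**Figure D2:**
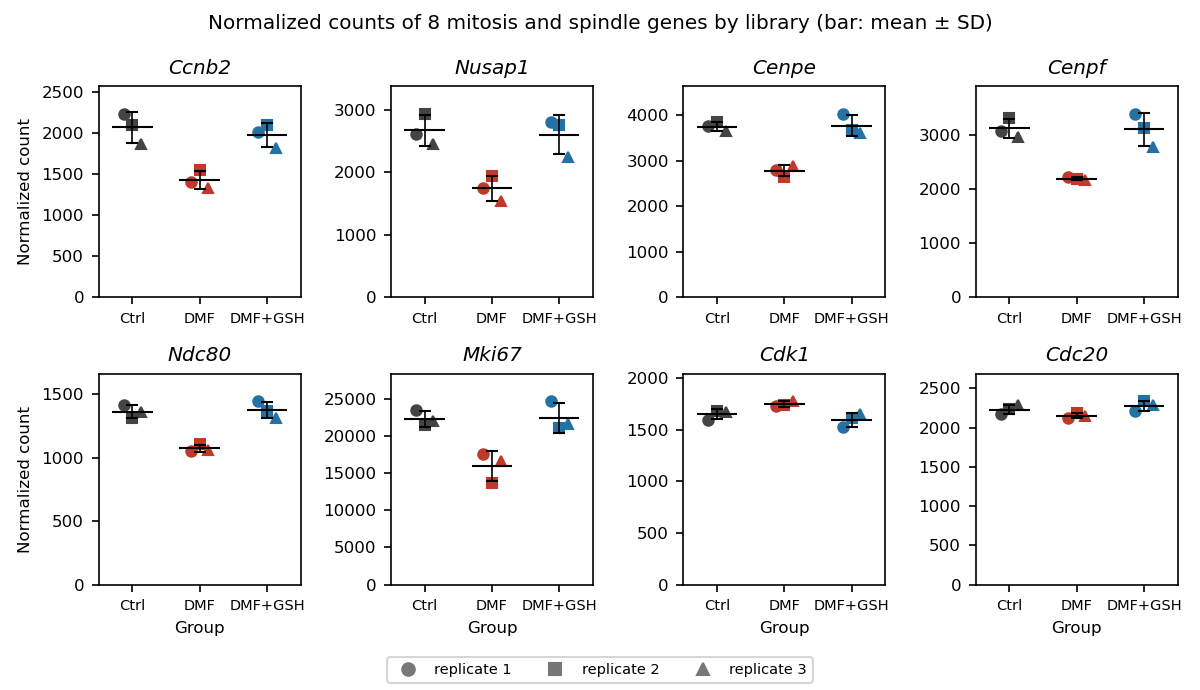
Normalized counts of 8 of the genes in the 9 libraries, by group (x axis), with each replicate as a symbol and the mean ± SD of the 3 libraries as bars; each y axis starts at 0. Ccnb2, Nusap1, Cenpe, Cenpf, Ndc80 and Mki67 have their 3 DMF libraries below all others, whereas the DMF means of Cdk1 (1749) and Cdc20 (2151) lie close to those of Ctrl (1649 and 2230).

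With GSH added to DMF, most of the genes were higher than with DMF alone. Of the 36, 35 had a log2 fold change above 0 for DMF + GSH against DMF and Cdk1 had one below 0, with a median log2 fold change of 0.25 (all genes: −0.0017) and a range from −0.13 (Cdk1) to 0.58 (Nusap1). This comparison uses the same DMF libraries as the one above, so that a gene with low DMF values is set apart in both. At an adjusted p under 0.01 (limma) only Cenpe rose (0.44 ± 0.065, adjusted p = 0.00847), against 0.414% of all genes called higher. At an adjusted p under 0.1, 26 genes were higher, against 15.7% of all genes. They were 6 of 7 kinetochore genes, 4 of 4 spindle genes, 4 of 5 cytokinesis genes, 3 of 3 checkpoint genes, 2 of 5 genes of mitotic entry, 2 of 4 passenger genes, 2 of 3 anaphase genes, both chromosome genes and 1 of 3 other kinases. Just outside 0.01 lay Cenpf (0.50, adjusted p = 0.0102), Mki67 (0.50, 0.0107), Bub1b (0.31, 0.0111), Ndc80 (0.36, 0.0112) and Ccnb2 (0.47, 0.0124). With the replicate block 23 genes were higher (13.7% of all genes), and edgeR called 2, Cenpe and Mki67 (0.483% of all genes). At an adjusted p under 0.1 with the block (limma), 29 were higher and 1 lower (23.5% and 25.3% of all genes). Mitotic entry then had 3 of 5 genes higher, the passenger complex 3 of 4 and the other kinases 2 of 3. Without the block the count at 0.01 was 0 when Ctrl replicate 1 or 2, DMF replicate 1 or 3, or DMF + GSH replicate 1 or 2 was left out, and 7, 8 and 8 without Ctrl replicate 3, DMF replicate 2 and DMF + GSH replicate 3. Calls over all genes in either direction were 0% to 0.621% in the former fits and 5.6%, 8.16% and 8.47% in the latter.

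Between DMF + GSH and Ctrl, limma with the batch term, limma with the replicate block and edgeR each called 0 of the 36 genes at an adjusted p under 0.01, and 0 had an unadjusted p under 0.05 in any of the 3 fits. Over all genes tested these fits called 0%, 0.0259% and 0%, and 1.91%, 5.16% and 1.84% had an unadjusted p under 0.05. The median log2 fold change of the 36 genes was 0.0075, with values from −0.10 (Top2a) to 0.077 (Kif23). In the fit with the batch term, the 95% interval was −0.30 to 0.093 for Top2a, −0.30 to 0.21 for Nusap1, −0.27 to 0.14 for Ccnb2 and −0.19 to 0.19 for Mki67. With 3 libraries a group, differences within these intervals remain possible in that fit. The intervals are not adjusted for the number of genes and are no limit of detection. With the replicate block the standard errors were smaller. They were 0.053 against 0.088 for Top2a, 0.057 against 0.11 for Nusap1, 0.058 against 0.090 for Ccnb2 and 0.058 against 0.085 for Mki67.

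**Figure D3:**
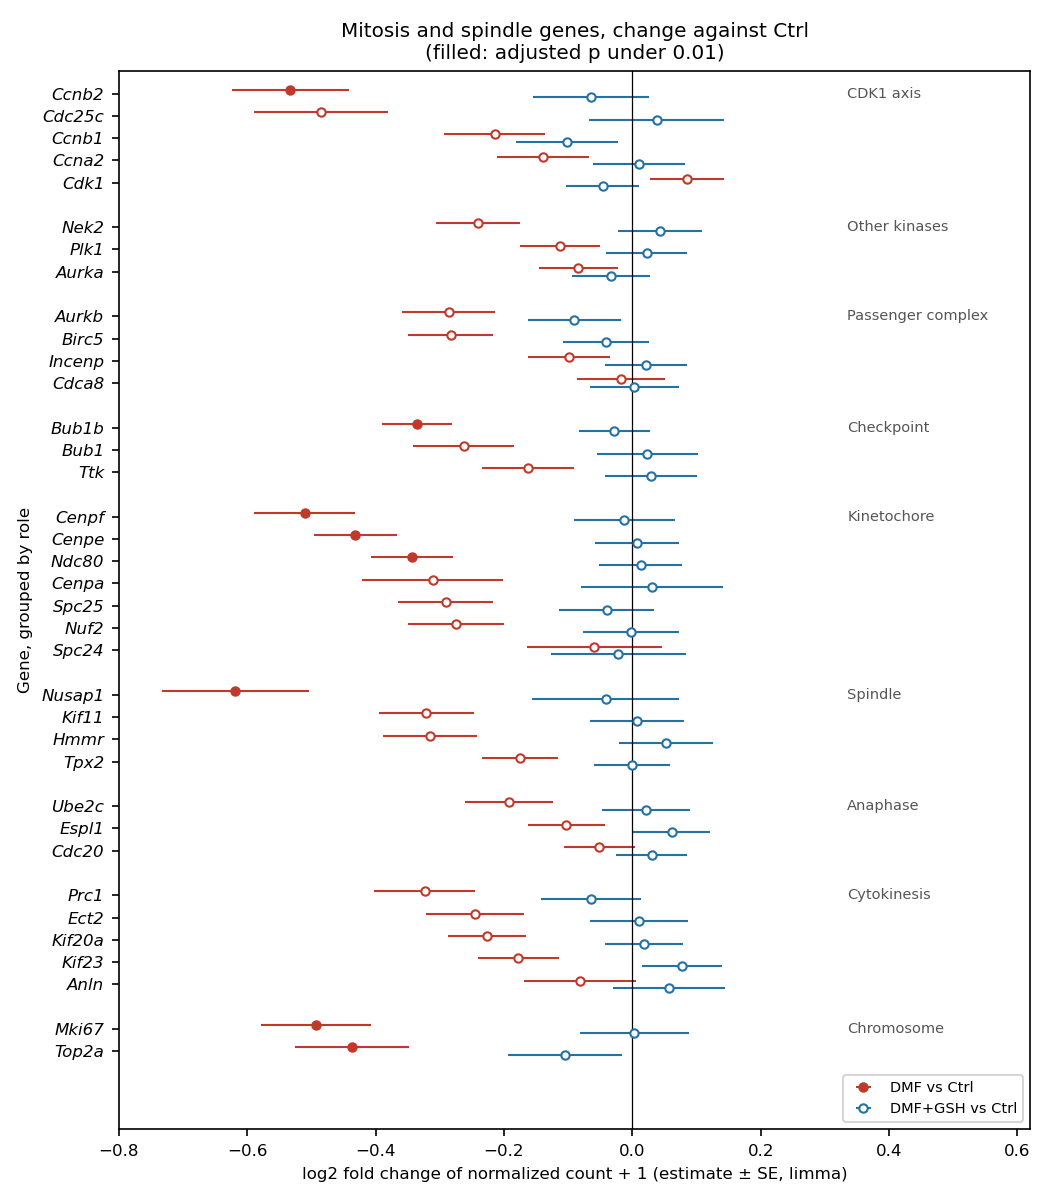
Log2 fold change (x axis, estimate ± SE, limma with the batch term) of each gene for DMF against Ctrl (red) and for DMF + GSH against Ctrl (blue), by role. Filled symbols have an adjusted p under 0.01 in that fit. The red values run from −0.62 to 0.085 and the blue ones from −0.10 to 0.077, and the 8 filled symbols are all red. With the replicate block, not drawn here, 22 genes passed for DMF against Ctrl.

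The genes differed widely in level. Per kilobase of exon, the Ctrl mean was 2574 normalized counts for Top2a, 2217 for Mki67, 1349.9 for Ccnb2, 1194 for Cdc20 and 1030.4 for Ccna2, and at the other end 202 for Cenpf, 189 for Kif23, 182 for Nuf2, 135 for Ttk, 74.0 for Cdc25c and 69.8 for Anln. On this scale genes past the threshold were found at both ends, and Cdc20 and Ccna2 were high but did not pass. By normalized count the lowest gene past the threshold was Ndc80 (Ctrl mean 1365), and no gene below it passed. The 8 genes past the threshold had a median exon length of 7557 bases (1531 to 15433) and the other 28 one of 4597 bases (1868 to 9063). Over the 36 genes, Spearman's rank correlation between exon length and the log2 fold change of DMF against Ctrl was −0.27, and over 11508 other genes tested it was −0.13. With the mean normalized count over the 9 libraries in place of exon length, the values were −0.25 and 0.11. Genes are not independent replicates, so these values are a description.

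Most of the genes followed a common pattern over the 9 libraries. Pearson's r between a gene and the mean of the other 35 on the log2 scale was highest for Ndc80 (0.98), Kif20a (0.98), Cdc25c (0.97), Bub1b (0.96) and Kif11 (0.96), and exceeded 0.9 in 17 genes. At the other end stood Aurka (0.35), Spc24 (0.16), Cdca8 (0.11) and Cdk1 (−0.81). All points share the libraries, their scaling and the differences between groups, so these values in part repeat the decrease with DMF. The correlation was not computed for the other genes tested.

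To show what the regulatory sequence of these genes looks like, promoter windows of 300 bases (250 before to 50 after the transcription start, RefSeq, GRCm38.p6) were read for 29 of the 36 genes; the entries of Aurkb, Spc24, Ccna2, Kif20a, Tpx2, Cdc25c and Incenp were not matched. Promoters of G2 and M phase genes are known for 2 elements, the cell cycle genes homology region (CHR, searched as TTTGAA), which the DREAM and MMB-FOXM1 complexes bind, and CCAAT boxes (searched as CCAAT), which NF-Y binds. Both were searched on both strands, and they may overlap: in Cdca8 a CHR and a CCAAT shared 1 base, and in Ube2c 2 CCAAT on opposite strands shared 2. TTTGAA was present in 22 of the 29 genes (75.9%) and in 20.2% of the 26996 other genes of the table, CCAAT in 24 (82.8%) against 41%, and both in 20 (69%) against 8.91%. Of the 8 genes past the threshold with DMF, 6 held TTTGAA and 6 held CCAAT, and of the other 21 with a window 16 and 18 did. The letters are a match and no measured binding.

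Windows of 4 genes were chosen to show these letters beside different responses: Ccnb2 (chr9:70421505-70421804, minus strand) and Cenpf (chr1:189688037-189688336, minus strand) fell and hold both motifs, Nusap1 (chr2:119618048-119618347, plus strand) had the largest decrease and holds neither, and Cdk1 (chr10:69352863-69353162, minus strand) was not lower and holds both. Each is written 5′ to 3′ along the gene, with TTTGAA and CCAAT in capitals, also where they lie on the other strand, where the CHR reads TTCAAA and the box ATTGG.
Ccnb2: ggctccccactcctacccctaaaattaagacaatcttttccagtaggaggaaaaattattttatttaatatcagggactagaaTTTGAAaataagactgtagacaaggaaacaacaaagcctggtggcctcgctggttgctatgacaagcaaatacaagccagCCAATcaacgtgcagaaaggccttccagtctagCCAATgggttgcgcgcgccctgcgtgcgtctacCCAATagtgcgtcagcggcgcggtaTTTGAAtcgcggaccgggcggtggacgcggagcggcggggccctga
Cenpf: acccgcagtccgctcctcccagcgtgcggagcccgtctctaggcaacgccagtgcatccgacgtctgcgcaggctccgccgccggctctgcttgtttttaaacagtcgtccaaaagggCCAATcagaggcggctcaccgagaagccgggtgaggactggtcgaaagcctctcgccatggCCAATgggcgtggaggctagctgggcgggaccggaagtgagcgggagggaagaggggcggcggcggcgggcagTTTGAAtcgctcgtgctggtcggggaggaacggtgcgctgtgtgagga
Nusap1: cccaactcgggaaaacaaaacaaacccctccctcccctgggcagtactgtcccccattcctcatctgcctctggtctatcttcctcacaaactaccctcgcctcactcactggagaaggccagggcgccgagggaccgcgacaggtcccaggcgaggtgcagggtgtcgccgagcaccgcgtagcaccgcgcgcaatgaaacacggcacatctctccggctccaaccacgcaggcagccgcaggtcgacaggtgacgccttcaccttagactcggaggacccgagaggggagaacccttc
Cdk1: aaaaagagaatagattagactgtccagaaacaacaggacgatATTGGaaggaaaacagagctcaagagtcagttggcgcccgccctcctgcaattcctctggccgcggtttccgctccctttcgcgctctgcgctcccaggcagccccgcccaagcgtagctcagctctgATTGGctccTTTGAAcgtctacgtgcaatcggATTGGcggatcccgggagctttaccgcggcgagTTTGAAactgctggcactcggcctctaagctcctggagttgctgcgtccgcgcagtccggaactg
In Ccnb2, 3 CCAAT precede a TTTGAA at the transcription start, and a second TTTGAA lies upstream. In Cdk1 the same elements are present, with 2 TTTGAA and 3 ATTGG, in a gene whose level did not fall. In Nusap1 the window holds no such letters, which says nothing of factors bound there or elsewhere.

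The regulators that are known to act on these promoters were themselves measured. Foxm1, the activator of G2 and M phase genes, was at 2177, 2076 and 2129 in Ctrl, 1635, 1722 and 1636 under DMF and 1998, 1976 and 2185 with DMF + GSH. Its DMF libraries were below all others (log2 fold change −0.35 ± 0.065 (SE), adjusted p = 0.00722 (limma)). Mybl2 (B-MYB), its partner in the MMB complex, was at 724, 643 and 835 in Ctrl, 796, 769.6 and 878 under DMF and 669, 765 and 831 with DMF + GSH (log2 fold change 0.16 ± 0.11, adjusted p = 0.303, limma), with overlapping groups. The pocket proteins, which repress cell cycle promoters, included 2 that fell, Rb1 (−0.47, adjusted p = 0.00402, limma) and Rbl2 (−0.55, 0.00909), and Rbl1 at −0.26 (adjusted p = 0.066). Among the E2F factors and their partners, E2f2 and Tfdp2 fell (−0.67 and −0.44, adjusted p = 0.00849 and 0.00861, limma). E2f1, E2f4 and Tfdp1 had values above 0 (0.29, 0.29 and 0.35) that passed at 0.1 and, with the replicate block, at 0.01. E2f3 and E2f6 were at 0.27 and 0.32 (adjusted p = 0.0591 and 0.0303, limma; 0.00674 and 0.00335 with the block), and E2f5, E2f7 and E2f8 at 0.10, −0.24 and −0.18, past neither limit. Of the MuvB subunits, Lin37 and Lin52 had log2 fold changes of −0.41 and −0.47 (adjusted p = 0.0837 and 0.0498, limma), and Lin9, Lin54 and Rbbp4 of 0.069, −0.048 and −0.014 (adjusted p = 0.682, 0.693 and 0.875). The NF-Y subunits Nfya, Nfyb and Nfyc had 0.070, 0.050 and −0.088, none past either limit. In all, 5 of the 23 genes tested of this list fell and 0 rose at 0.01, against 3.6% of all genes called in each direction, with a list median of −0.048. With the replicate block 6 fell and 5 rose, against 15.6% and 17.6% of all genes.

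Most of the other spindle and cytokinesis genes were lower as well. Of 32 tested, 9 fell and 0 rose at an adjusted p under 0.01 (limma; 3.6% of all genes lower), 23 were lower at 0.1 (18.3% of all genes), and 18 fell with the replicate block (15.6% of all genes), with a median of −0.28. Depdc1b, which helps cells detach on entry into mitosis, was at 775, 693 and 599 in Ctrl, 339, 377 and 263 under DMF and 705, 684 and 485 with DMF + GSH and had the largest decrease of the list (log2 fold change −1.08 ± 0.16 (SE), adjusted p = 0.00457 (limma)). The next in size past the threshold were the cytokinesis scaffold Iqgap3 (−0.66, adjusted p = 0.00297, limma), the spindle pole protein Aspm (−0.54, 0.00457), the kinesin Kif14 (−0.53, 0.00936) and citron kinase Cit (−0.45, 0.0059). With DMF + GSH against DMF, the median of this list was 0.28 and 1 gene, Iqgap3, rose at 0.01 (0.57, adjusted p = 0.00809, limma; 0.414% of all genes higher).

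Condensin and cohesion genes had a median of −0.17, with 1 of 21 past the threshold, the condensin subunit Ncapd2 (−0.44 ± 0.071, adjusted p = 0.00595, limma), and 9 lower with the replicate block, against 3.6% and 15.6% of all genes. The other kinetochore genes had a median of −0.13 over 33 genes. With the block 5 of them were lower and 1 higher, a share lower that is close to that of all genes. Without it 2 were lower at 0.01, among them Hjurp, the chaperone that loads CENP-A at the centromere (log2 fold change −0.50, adjusted p = 0.00666, limma). Of 16 further G2/M control genes, Cdc25b, the phosphatase that starts CDK1 activation, fell, at 2386, 2411 and 1824 in Ctrl, 1181, 1458 and 1044 under DMF and 2220.2, 2335 and 1697 with DMF + GSH (log2 fold change −0.85 ± 0.16 (SE), adjusted p = 0.00737 (limma)), with a list median of −0.067 and 3 genes lower and 2 higher under the block, near the shares of all genes (15.6% and 17.6%). The 16 subunits and regulators of the anaphase-promoting complex had a median of 0.0091, and 0 passed in either direction (limma; 4 had an unadjusted p under 0.05, against 41.5% of all genes, edgeR also called 0, and the block 1 lower and 1 higher).

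Genes of S phase were mostly above 0 with DMF, and those of G1 were mixed. Of 34 DNA replication genes, 24 had values above 0, with a median of 0.13 (0.11, 0.24 and 0.036 in replicates 1, 2 and 3, and 0.072 without Ctrl replicate 2), and 0 were called at 0.01 by limma or edgeR (10 with an unadjusted p under 0.05 in each, below the 41.5% and 41.4% of all genes). At 0.1, 8 were higher and 0 lower (19.9% of all genes higher), and at 0.01 with the replicate block 11 were higher and 0 lower (17.6% of all genes higher). The lowest adjusted p was that of the origin factor Mcm10 (0.34 ± 0.094, adjusted p = 0.0247, limma). Among 12 G1 genes tested (3 lower and 6 higher with the block, against 15.6% and 17.6% of all genes), the D-type cyclin Ccnd2 rose, from 4343, 4692 and 4651 in Ctrl to 7332, 5734 and 6945 with DMF (log2 fold change 0.54 ± 0.091 (SE), adjusted p = 0.0064 (limma)), and the CDK inhibitor Cdkn1b (p27) fell, from 1831, 2205 and 1446 to 918, 1175 and 877 (log2 fold change −0.87 ± 0.17 (SE), adjusted p = 0.00785 (limma)). The CDK inhibitor Cdkn1a (p21) was at 247, 238 and 452 in Ctrl, 642, 436 and 624 under DMF and 223, 212 and 410.3 with DMF + GSH, with a log2 fold change of 0.90 ± 0.30 that passed at 0.1 (adjusted p = 0.047, limma) and, with the replicate block, at 0.01 (adjusted p = 1.49e-05). The CDK inhibitor Cdkn2d had the largest decrease of the list (−0.92), from 1529, 1575 and 1099 in Ctrl to 623, 972 and 643 with DMF. Cdkn2c, a further one, was at 642, 552 and 611 in Ctrl and 450, 419 and 395 with DMF. Neither passed at 0.01 without the block. The medians of the replication and G1 lists for DMF + GSH against DMF were −0.12 (−0.080 without DMF + GSH replicate 2) and −0.20.

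The number of calls in these lists changed with the libraries left out, as it did for the 36 genes. Without Ctrl replicate 1 or 2 or DMF replicate 1 or 3, 0 genes of any of these lists passed at 0.01 for DMF against Ctrl without the block, and without DMF + GSH replicate 1 only 1 spindle and 1 transcription gene did. Calls over all genes in either direction were 0.0172% to 0.604% in these fits. For DMF + GSH against DMF, the other spindle and cytokinesis genes had 0 to 9 calls over the libraries left out, against 0% to 8.47% of all genes. The medians of the spindle (−0.30 to −0.23) and condensin (−0.19 to −0.14) lists moved little for DMF against Ctrl. The kinetochore median was −0.049 without DMF replicate 1. The median of the G2/M control genes was −0.017 when Ctrl replicate 3 was omitted and −0.10 when Ctrl replicate 1 was, and lay at −0.020 and −0.037 after omission of DMF replicates 1 and 3. That of the transcription regulators turned to 0.011 on omission of Ctrl replicate 3, and was −0.073 and −0.075 on that of Ctrl replicates 1 and 2. The anaphase-promoting complex ran from −0.029 without DMF replicate 3 to 0.057 without DMF replicate 2, and the G1 median was 0.18 without Ctrl replicate 2.

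**Figure D4:**
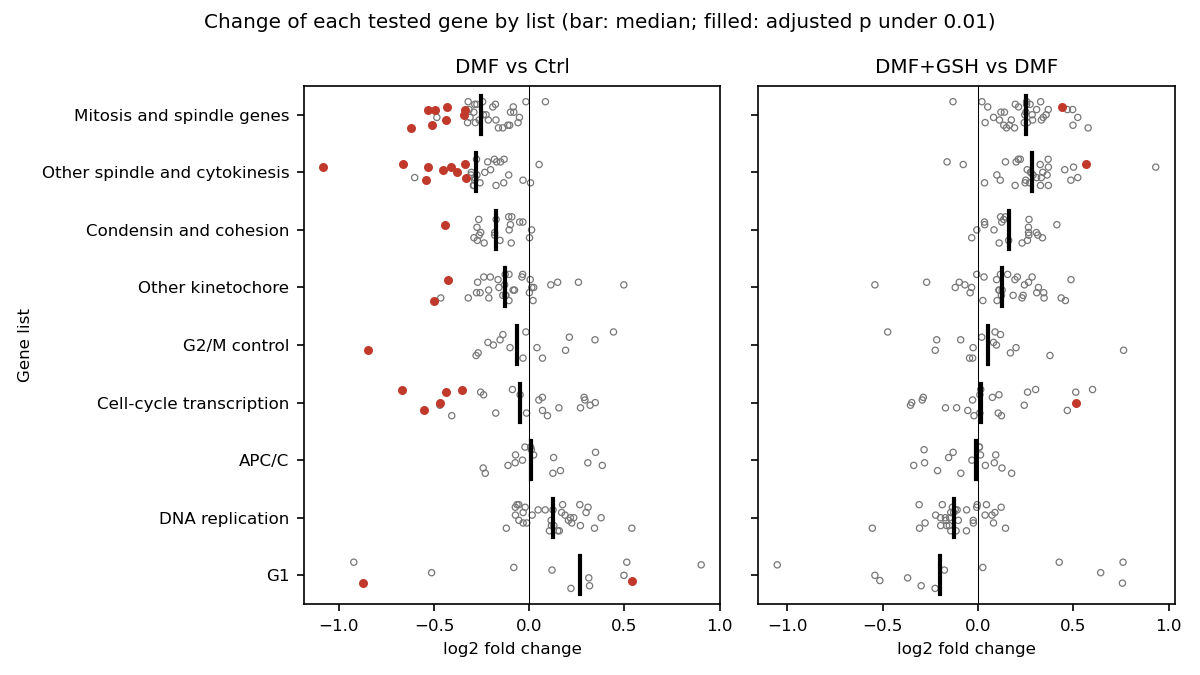
Log2 fold change (x axis) of each tested gene by list (rows), for DMF against Ctrl (left) and DMF + GSH against DMF (right). The black bar is the list median, and filled points have an adjusted p under 0.01 (limma with the batch term). On the left the medians run from −0.28 (other spindle and cytokinesis) and −0.25 (the 36 genes) to 0.13 (DNA replication) and 0.27 (G1), and on the right from 0.28 and 0.25 to −0.12 and −0.20 for the same lists; both panels use the same DMF libraries.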

How the data were processed

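RNA-Seq of 9 libraries of murine Tc17 cells was analysed. The authors sequenced single reads of 50 bp from poly(A) libraries, aligned them with STAR 2.4.0b to GRCm38 and counted reads per gene with featureCounts. The deposited signal values are normalized counts, that is, reads per gene after division by the size factor of the library; 100% of the values were whole reads within 0.01 after division by the library's smallest step. The authors' deposited table further holds the mean over libraries and, for Ctrl relative to DMF, a log2 fold change, the test's score (its statistic) and a p-value, none of which was used. Strand use in counting is not stated in the paper or labels, so that reads of overlapping genes on opposite strands cannot be told apart (Nusap1, Nek2, Ube2c, Prc1, Cdc25c and Cdc20 among the genes shown in full); Top2a shares 122 bases with Gm23451 on its own strand.

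limma-trend (limma 3.58.1, R 4.3.3) was fitted to log2(normalized count + 1) of 11599 genes (mean normalized count 10 or more), with group and preparation batch, over all 9 libraries. Adjusted p-values are Benjamini-Hochberg over these genes. edgeR 4.0.16 (quasi-likelihood) was run on the recovered reads as an alternative. Depth was 7671772 to 14511926 reads, and no member fell below 238 normalized counts in any library. The replicate numbers of the labels paired the samples: deviations from the group means correlated with 0.447 to 0.578 in the 9 pairs of equal number and with −0.47 to −0.062 in the 18 pairs of unequal number. Groups, replicate numbers and batches come from the labels.

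Genes shown in full were, by rule, the member of each of 9 roles with the largest absolute log2 fold change and every member past the threshold. Cdc25c, Cdk1, Spc24 and Cdc20 were added after their values were seen, as were the windows printed. The members and lists were chosen with earlier results of these data known. Positions and exon lengths come from GENCODE vM21 (GRCm38), in which 40254 of 41388 identifiers were found. Alternatives were the replicate block, edgeR, omission of the batch, of the minimum or of each library in turn, a minimum of 50, a pseudocount of 4, TMM, quantile normalization and a fit of just the 6 libraries compared; the block with each library left out, and the other lists with each library left out, were chosen after seeing the data. Figures were made with Python 3.11.15 and matplotlib 3.10.9.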

Additional observations from a re-analysis of the deposited data

How the results depend on the processing

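The medians kept their sign and size for DMF against Ctrl (−0.29 to −0.21) and for DMF + GSH against DMF (0.20 to 0.30) under all alternatives, and the 12 genes shown in full by rule kept their direction in both. For DMF + GSH against Ctrl the median ran from −0.027 to 0.027 over the libraries left out.

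The number of genes past the threshold did not. For DMF against Ctrl it was 8, 6 without the batch term (Top2a and Mki67 lost), 9 without a minimum, 10 with quantile normalization (Top2a lost), 22 with the replicate block, 0 with only the 6 libraries compared, and 0 to 10 over the libraries left out (15 to 24 with the block). Over all genes, calls in either direction were 7.19% in the main fit, 5.03% without the batch term and 4.36% without a minimum. They were 7.43% with quantile normalization, 33.2% with the block and 0.414% with only the 6 libraries. Over the libraries left out they ran from 0.0172% to 13% (23.5% to 34.9% with the block). For DMF + GSH against DMF the number was 1, 0 without the batch term and with only the 6 libraries, 2 with a pseudocount of 4, with quantile normalization and with edgeR, 6 without a minimum, 23 with the replicate block, and 0 to 8 over the libraries left out (14 to 24 with the block). Over all genes the calls were 0.819%, 0.293% without the batch term and 0.0431% with only the 6 libraries. They were 0.966% with a pseudocount of 4, 1.23% with quantile normalization, 0.957% with edgeR, 2.5% without a minimum and 29.2% with the block. Over the libraries left out they ran from 0% to 8.47% (19.9% to 29.1% with the block). The fits that each left out 1 library were of equal size, and some of them called more genes than the main fit. Why the numbers differed was not tested. The adjusted p of the 8 genes named for DMF (limma or edgeR) stayed at or below 0.0658 under all alternatives. For DMF + GSH against Ctrl 0 genes passed in all alternatives.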
